A study of Mus musculus with 2 samples.

Results

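The genes described here are 9 regulators of red cell formation, Gata1, Klf1, Tal1, Lmo2, Nfe2, Gfi1b, Zfpm1, Ldb1 and Epor, together with Bnip3l, which acts in the clearance of mitochondria from maturing red cells. They were taken by symbol, and all 10 had an entry among the 43346 genes of the deposited tables. RNA was measured in the livers of 2 newborn B6NCrl mice on day 0 after birth, pup 1 (replicate 1) and pup 3 (replicate 2), in 1 library each. Each library began with 13 pg of total RNA above 200 nt, which is 1 cell-equivalent, with spike-in RNAs added, and was prepared by a SmartSeq protocol that amplifies cDNA by PCR. The animals carry no treatment or engineered allele in the labels, and their sex was not collected. Both samples are labelled as single livers, yet they carry an identical donor entry, so biological and technical spread cannot be told apart. With all samples in 1 group there is nothing to test between conditions, and values are given as levels with their spread. Levels are in TPM (transcript abundance, a scale corrected for length) with spike-ins removed and the rest rescaled to 1000000, and errors are SD with n = 2.

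Red cells form in the fetal and newborn liver from progenitors that depend on erythropoietin, whose receptor EPOR signals through the kinase JAK2 and the factor STAT5. GATA1 binds DNA with its cofactor FOG1 (gene Zfpm1), or in a larger complex with TAL1, the bridging protein LMO2 and the adaptor LDB1. KLF1 activates adult beta-globin and other red cell genes, NF-E2 joins a p45 subunit (gene Nfe2) to a small MAF protein, and GFI1B is a repressor that recruits LSD1 and CoREST. Late in maturation BNIP3L, also called NIX, sits in the outer mitochondrial membrane and binds LC3 and GABARAP proteins, so that mitochondria are engulfed and removed.

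Bnip3l had more TPM than any regulator and was measured in both livers, but most of its TPM was assigned to short transcripts annotated as non-coding. The sequences that separate the short transcript Bnip3l-205 from the mRNA are shown because the level of Bnip3l depends on how reads were divided between such transcripts and the mRNA. Each line gives 60 bases of the GRCm38 assembly, 5′ to 3′ on the minus strand of chromosome 14. Lower case marks bases that the short transcript shares with the mRNA. Capitals mark the stretches of the pair that come from different genomic positions, where single bases can still be alike.
Bnip3l-205: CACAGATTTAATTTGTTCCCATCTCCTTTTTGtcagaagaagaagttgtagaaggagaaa
Bnip3l-201: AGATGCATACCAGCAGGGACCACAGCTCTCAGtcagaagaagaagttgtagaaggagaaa
Bnip3l-201 is the mRNA, and all 60 of its bases shown are coding. The 5′ end of Bnip3l-205 is at chr14:66989482-66989841, spliced, with 32 private bases.

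The libraries held 56959836 expected counts for pup 1 and 35973980 for pup 3, and after removal of spike-ins 54817565 and 34792898. By counting error alone, a count of 0 therefore allowed up to 0.0547 CPM (expected counts over the library total, scaled to 1000000) in pup 1 and 0.0862 CPM in pup 3. Genes at 1 TPM or more numbered 5742 in pup 1 and 5491 in pup 3. The tissue label was met by its markers: 8 of 8 hepatocyte genes were at 1 TPM or more in both libraries, with a sum of 165452 TPM in pup 1 against 131614 TPM in pup 3. Red cell products reached a similar sum: 10 of the 11 matched genes were at 1 TPM or more in both libraries, and they summed to 133566 TPM in pup 1 against 163667 TPM in pup 3.

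Against those red cell products, most regulators were low or counted in a single library. Of the 10 genes, 4 were at 1 TPM or more in both libraries (Bnip3l, Lmo2, Gfi1b and Nfe2), 1 only in pup 1 (Klf1), 2 only in pup 3 (Ldb1 and Epor) and 3 in neither (Tal1, Gata1 and Zfpm1). Over all genes 8.2% were at that level in both libraries, and over protein-coding genes 14.9%. Among genes at 1 TPM or more in at least 1 library the share was 46.3%, against 4 of 7 here. By library, 5 of the 10 genes passed 1 TPM in pup 1, where 13.2% of all genes did, and 6 in pup 3, where 12.7% did. The 10 genes summed to 657 TPM in pup 1 against 881 TPM in pup 3, a mean of 769 ± 158 TPM. Bnip3l supplied 85.6% of that sum in pup 1 and 77.7% in pup 3, and the 9 regulators together supplied 94.7 TPM in pup 1 against 196 TPM in pup 3.

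**Figure D1:**
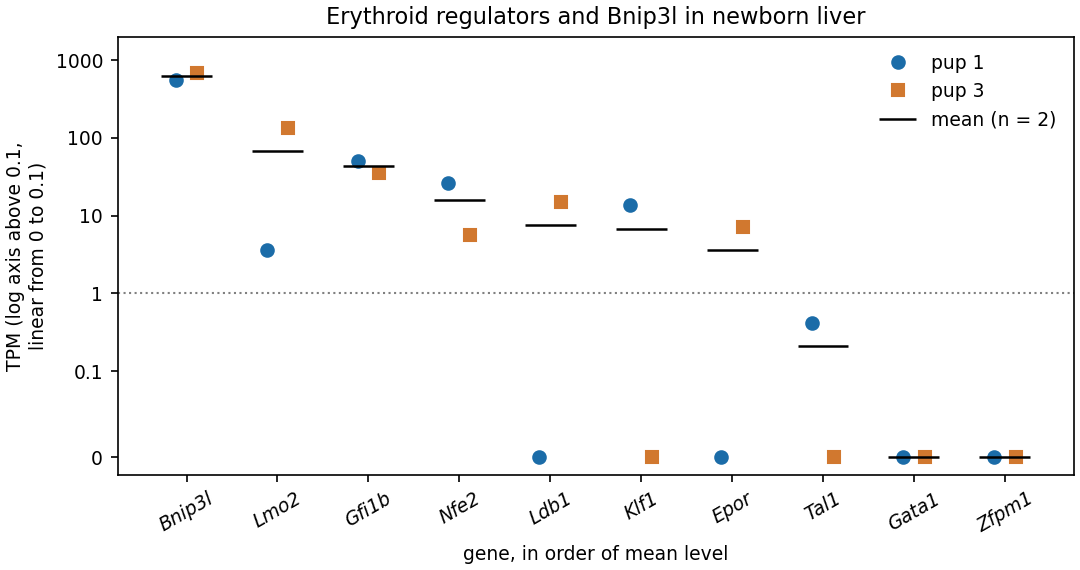
TPM of the 10 genes in pup 1 (circles) and pup 3 (squares), with the mean of both (lines), on an axis that is logarithmic above 0.1 TPM and linear below; the dotted line marks 1 TPM. Bnip3l lies at 562 TPM in pup 1 against 685 TPM in pup 3, Gata1 and Zfpm1 lie at 0 in both, and Ldb1, Klf1, Epor and Tal1 lie at 0 in 1 library each.

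By mean level the order was Bnip3l, Lmo2, Gfi1b, Nfe2, Ldb1, Klf1, Epor and Tal1, with Gata1 and Zfpm1 last at 0. The values of neighbours in this order did not overlap between Bnip3l and Lmo2, or between Gfi1b and Nfe2. All other neighbours overlapped, so the order among them was not resolved by these libraries.

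The receptor for erythropoietin was counted in 1 liver only. Epor (ENSMUSG00000006235, chr9:21958897-21963506, minus strand) had 0 TPM in pup 1 against 7.16 TPM in pup 3, from 0 and 355 expected counts. Set against the level that 3 counts would give in pup 1, the value in pup 3 was at least 172-fold higher; the authors' upper credibility bound in pup 1 was 0.0411 TPM. Neither figure covers molecules lost before amplification, and the other fold values against 3 counts given below share this limit. At a mean of 3 to 10 TPM, where Epor lies, 22.1% of 1247 genes were at 1 TPM or more in both libraries. These are also tissue averages, in which fewer cells of a type and less RNA per cell cannot be told apart.

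Other genes of the erythropoietin pathway were present unevenly. Of 15 listed, 6 were at 1 TPM or more in both libraries, 2 in pup 1 only and 7 in neither. Over protein-coding genes the shares were 14.9% in both libraries and 67.8% in neither, and they also stand beside the lists below. Bcl2l1, which encodes the survival protein BCL-XL, led with 258 TPM in pup 1 against 164 TPM in pup 3. Tfrc, the transferrin receptor that takes up iron, had 147 TPM in pup 1 against 100.5 TPM in pup 3. The phosphatase gene Ptpn6, whose product SHP-1 dampens the receptor's signal, had 1.04 TPM in pup 1 against 123 TPM in pup 3. Its gap ran the same way as that of Epor, with the higher value in pup 3. Of all genes with a mean of 10 or more expected counts, 33.1% were more than 2-fold higher in pup 3.

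Downstream of the receptor, Stat5b had 17.8 TPM in pup 1 against 33.3 TPM in pup 3. Stat5a, its close paralog, had 4.74 TPM in pup 1 against 0.032 TPM in pup 3, and reads that fit both genes are divided by estimation. Cish, a feedback inhibitor that STAT5 induces, had 30.1 TPM in pup 1 against 0.064 TPM in pup 3. Cish was thus higher in the library in which Epor had no count. Of all genes with a mean of 10 or more expected counts, 34.5% were more than 2-fold higher in pup 1. A count of 0 in 1 library only was found for 39.3% of them, so the pairing is no result about the pathway. Jak2 and Epo had 0 counts in both libraries, as did Erfe, which encodes the hormone erythroferrone. Kit, the stem cell factor receptor of early progenitors, lay just under the threshold at 0.964 TPM in pup 1 against 0.954 TPM in pup 3.

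Among the transcription factors, Gata1 and its cofactor had no count in either liver. Gata1 (ENSMUSG00000031162, chrX:7959260-7978071, minus strand) had no expected count in either library, where 3 counts would have given 0.0399 TPM in pup 1 against 0.0581 TPM in pup 3. Zfpm1, the gene of FOG1 (ENSMUSG00000049577, chr8:122282141-122337251, plus strand), also had 0 counts in both, and 3 counts would have given 0.0218 TPM in pup 1 against 0.0318 TPM in pup 3. The authors' upper credibility bounds were wider, at 0.298 TPM in pup 1 and 0.425 TPM in pup 3 for Gata1, and 0.447 TPM in pup 1 and 0.651 TPM in pup 3 for Zfpm1. Neither gene was detected in these libraries. Such floors cover counting error only, and not molecules lost before amplification. Of all protein-coding genes 67.8% were under 1 TPM in both libraries. Zfpm1 lies within the span of the same-strand gene Gm20388, which had 22.8 TPM in pup 1 against 0 TPM in pup 3. The annotated exons of these genes share 0 bases.

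Tal1, Lmo2 and Ldb1, whose products form a complex with GATA1, had counts that differed between the libraries. Tal1, a basic helix-loop-helix factor of blood formation (ENSMUSG00000028717, chr4:115056426-115071755, plus strand), had 0.418 TPM in pup 1 against 0 TPM in pup 3, from 71 and 0 expected counts. It was under 1 TPM in both. Against 3 counts it was at least 16.4-fold higher in pup 1, but the authors' upper credibility bound in pup 3, 0.213 TPM, allows a much smaller gap. Lmo2 (ENSMUSG00000032698, chr2:103957986-103981878, plus strand) had 3.60 TPM in pup 1 against 133 TPM in pup 3, from 215 and 5341 expected counts. Its log2(TPM + 1) ratio of pup 1 over pup 3 was -4.87, so the mean of 68.5 ± 91.8 TPM describes neither liver.

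Ldb1 (ENSMUSG00000025223, chr19:46031570-46045214, minus strand) had 0 TPM in pup 1 against 15.0 TPM in pup 3, from 0 and 722 expected counts. It was at least 351-fold higher in pup 3, as measured against 3 counts, but the authors' upper credibility bound in pup 1, 0.236 TPM, allows a smaller gap. The antisense neighbour Pprc1 shares 177 exon bases with Ldb1 and was also counted in the same library only, at 0 TPM in pup 1 against 17.8 TPM in pup 3. The sources used here do not say whether strand was used in counting, and reads of the shared bases cannot be told apart. The library of pup 1 thus had low levels of Tal1 and Lmo2 and no count of Ldb1. That of pup 3 had counts of Lmo2 and Ldb1 and none of Tal1. A count of 0 in 1 library only was found for 39.3% of all genes with a mean of 10 or more expected counts. These gaps are therefore no result about the complex in either liver.

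Of 10 further listed partners of LDB1, 2 were at 1 TPM or more in both libraries, 2 in pup 1 only, 2 in pup 3 only and 4 in neither. Lyl1, a close relative of TAL1, had 23.9 TPM in pup 1 against 40.2 TPM in pup 3, and so was counted where Tal1 was nearly absent. Genes of the single-stranded DNA-binding proteins that stabilise LDB1 were counted unevenly. Ssbp2 had 55.1 TPM in pup 1 against 0.095 TPM in pup 3, and Ssbp4 had 0 TPM in pup 1 against 25.4 TPM in pup 3. Ssbp3 had 0.011 TPM in pup 1 against 0 TPM in pup 3. At a mean of 10 to 30 TPM, where Ssbp2 and Ssbp4 lie, 29.0% of genes were at 1 TPM or more in both libraries. Their opposite gaps are therefore no result about these partners. Lmo4, a relative of LMO2, had 1.97 TPM in pup 1 against 4.69 TPM in pup 3. Tcf3, which encodes the E proteins that pair with TAL1, had 0.011 TPM in pup 1 against 0.095 TPM in pup 3.

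Klf1 was counted in pup 1 only. It (ENSMUSG00000054191, chr8:84901928-84905291, plus strand) had 13.6 TPM in pup 1 against 0 TPM in pup 3, from 815 and 0 expected counts. It was at least 186-fold higher in pup 1 by 3 counts, and the authors' upper credibility bound in pup 3 was 0.0717 TPM. The adult beta-globin genes that KLF1 is known to activate were abundant in both: Hbb-bs had 28369 TPM in pup 1 against 38842 TPM in pup 3, although near-identical globin copies share reads by estimation. Globin was thus abundant in the library without a Klf1 count as well.

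Nfe2 and Gfi1b were the regulators other than Lmo2 that passed 1 TPM in both livers. Nfe2 (ENSMUSG00000058794, chr15:103248212-103258403, minus strand) had 26.4 TPM in pup 1 against 5.55 TPM in pup 3, from 805 and 70 expected counts. Its log2(TPM + 1) ratio was 2.06. These values also lean on short transcripts: a transcript of 774 nt held 42.2% of the gene's TPM in pup 1 and 43.0% in pup 3, and the rest in pup 3 was a transcript of 362 nt. With every count credited to the length of the principal annotated mRNA (1878 nt), Nfe2 stood at 11.9 TPM in pup 1 against 1.53 TPM in pup 3, still higher in pup 1.

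All 4 partners and relatives of NF-E2 that reached 1 TPM did so in both libraries, out of 6 listed. The small MAF genes Mafg and Mafk, whose products dimerise with p45, had 40.8 and 34.9 TPM in pup 1 against 16.6 and 9.08 TPM in pup 3. Their higher value was in pup 1, as for Nfe2. Of all genes with a mean of 10 or more expected counts, 34.5% were more than 2-fold higher in pup 1. The broadly expressed relatives ran the other way: Nfe2l2 had 63.5 TPM in pup 1 against 172 TPM in pup 3, and Nfe2l1 had 25.7 TPM in pup 1 against 43.5 TPM in pup 3. Maff and Bach1 had 0 counts in both.

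Gfi1b had the smallest gap between the libraries among the regulators that were counted in both. It (ENSMUSG00000026815, chr2:28609450-28621982, minus strand) had 50.7 TPM in pup 1 against 35.3 TPM in pup 3, a mean of 43.0 ± 10.9 TPM, from 3103 and 1601 expected counts. Its log2(TPM + 1) ratio was 0.51. The mRNA Gfi1b-201 held 89.7% of its TPM in pup 1 and 98.3% in pup 3. The 3 other transcripts counted each held under 10% in either library.

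The corepressors of GFI1B and FOG1 were split. Of 11 listed, 4 were at 1 TPM or more in both libraries, 2 in pup 1 only, 1 in pup 3 only and 4 in neither. Histone-binding Rbbp7 had 297 TPM in pup 1 against 87.7 TPM in pup 3, and Rbbp4 had 120 TPM in pup 1 against 113 TPM in pup 3. The deacetylase gene Hdac1 had 73.0 TPM in pup 1 against 118 TPM in pup 3, and Mta2, a subunit of the NuRD complex, had 0.075 TPM in pup 1 against 37.1 TPM in pup 3. Among the partners through which GFI1B acts directly, Kdm1a (LSD1) had 0.011 TPM in pup 1 against 0 in pup 3. Rcor1 (CoREST) had 0 in both. Of all protein-coding genes 67.8% were under 1 TPM in both libraries, so these values are no result about the partners of GFI1B.

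Several of these regulators are also used by megakaryocytes, and LMO2 by endothelium. Of 12 megakaryocyte markers 3 were at 1 TPM or more in both libraries, 1 in pup 1 only, 3 in pup 3 only and 5 in neither, and they summed to 696 TPM in pup 1 against 1216 TPM in pup 3. The platelet chemokine genes Pf4 and Ppbp had 579 and 36.6 TPM in pup 1 against 771 and 290 TPM in pup 3. Gp9 had 61.4 TPM in pup 1 against 40.4 TPM in pup 3, and Itga2b (CD41) had 0.032 TPM in pup 1 against 55.4 TPM in pup 3. Gp1ba, Gp5, Gp6 and Treml1 were at 0 counts in both.

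Of 10 endothelial markers 4 were at 1 TPM or more in both libraries, 3 in pup 1 only, 1 in pup 3 only and 2, Tek and Emcn, had 0 counts. They summed to 363 TPM in pup 1 against 170 TPM in pup 3, led by Egfl7 (89.4 TPM in pup 1 against 82.8 TPM in pup 3), Stab2 (140.2 and 31.2 TPM), Lyve1 (52.2 and 0.011 TPM) and Stab1 (49.5 and 0 TPM). Other members were higher in pup 3: Pecam1 had 2.55 TPM in pup 1 against 35.9 TPM in pup 3, Cdh5 had 1.72 TPM in pup 1 against 18.6 TPM in pup 3, and Kdr had 0 TPM in pup 1 against 1.44 TPM in pup 3. The megakaryocyte sum was higher in pup 3, as were Lmo2 and these 3 endothelial genes, while Nfe2, Gfi1b and the endothelial sum were higher in pup 1. Mast cell and basophil genes, markers of cells that also use GATA1, had 7 of 9 markers at 0 counts in both libraries. Their sum of 45.9 TPM in pup 1, against 0 in pup 3, was almost all Prss34. Eosinophil genes had 5 of 6 at 0, and Ear2 alone gave 96.2 TPM in pup 1 against 0 in pup 3. The part of these cell types in the levels of the regulators was not tested, nor was that of hepatocytes and red cells in the level of Bnip3l.

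**Figure D2:**
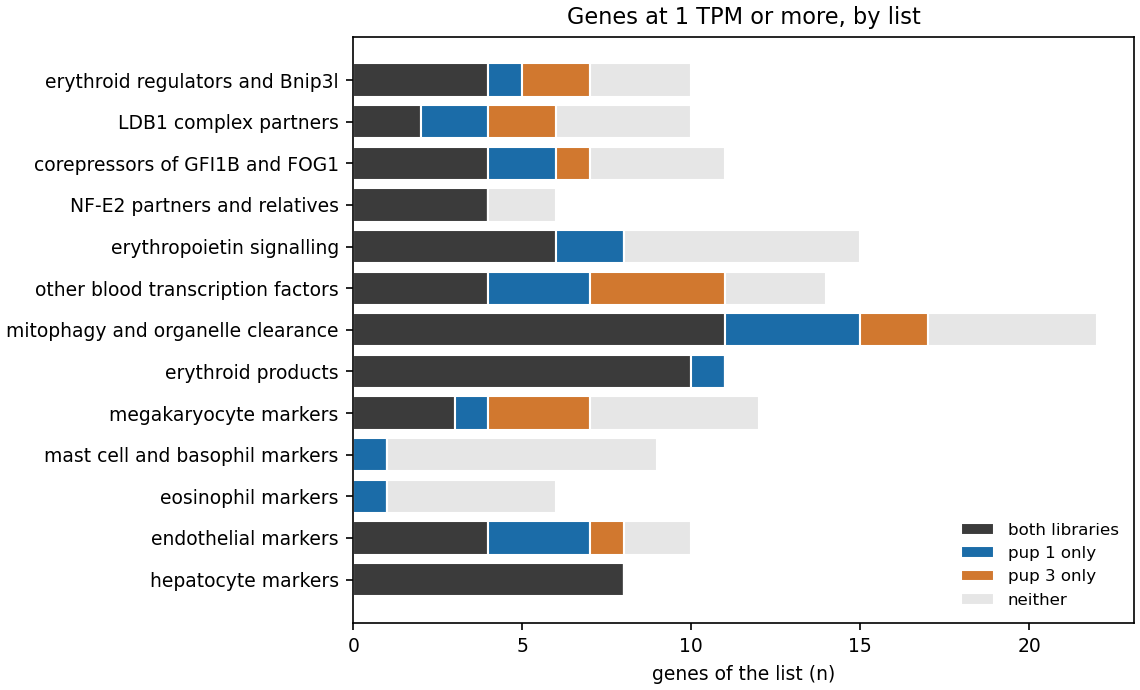
Number of genes of each list that reached 1 TPM in both libraries, in pup 1 only, in pup 3 only or in neither. Red cell products and hepatocyte markers were almost all counted in both libraries (10 of 11 and 8 of 8), against 4 of the 10 genes described here and 2 of 10 LDB1 partners.

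Of the 10 genes, 8 averaged 10 or more expected counts over the libraries, and 5 of these differed between the livers by more than 2-fold on the log2(TPM + 1) scale. Klf1 and Nfe2 were higher in pup 1, and Lmo2, Ldb1 and Epor in pup 3. The same gap was passed by 67.6% of all 8120 genes with that many counts, 34.5% being higher in pup 1 and 33.1% higher in pup 3. The median log2 ratio of the 8 genes was 0.11 and that of all genes 0.04. A count of 0 in 1 library only was found for 4 of the 8 (Tal1, Klf1, Ldb1 and Epor) and for 39.3% of all genes with that many counts. Both shares are near the background, and the gaps are no result about the regulators.

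Detection in both libraries varied with level. At a mean of 3 to 10 TPM, where Klf1, Ldb1 and Epor lie, 22.1% of 1247 genes were at 1 TPM or more in both libraries. At 10 to 30 TPM, the range of Nfe2, the share was 29.0% of 2485 genes, and at 30 to 100 TPM, the range of Lmo2 and Gfi1b, it was 75.7% of 1822. At 300 to 1000 TPM, the range of Bnip3l, all 316 genes were counted in both. The added spike-in RNAs had such gaps as well. Of 21 that were at 1 to 133 TPM in some library, 12 (57.1%) were under 1 TPM in the other. Over the same range the figure was 62.1% of 6543 genes and 3 of 6 regulators.

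**Figure D3:**
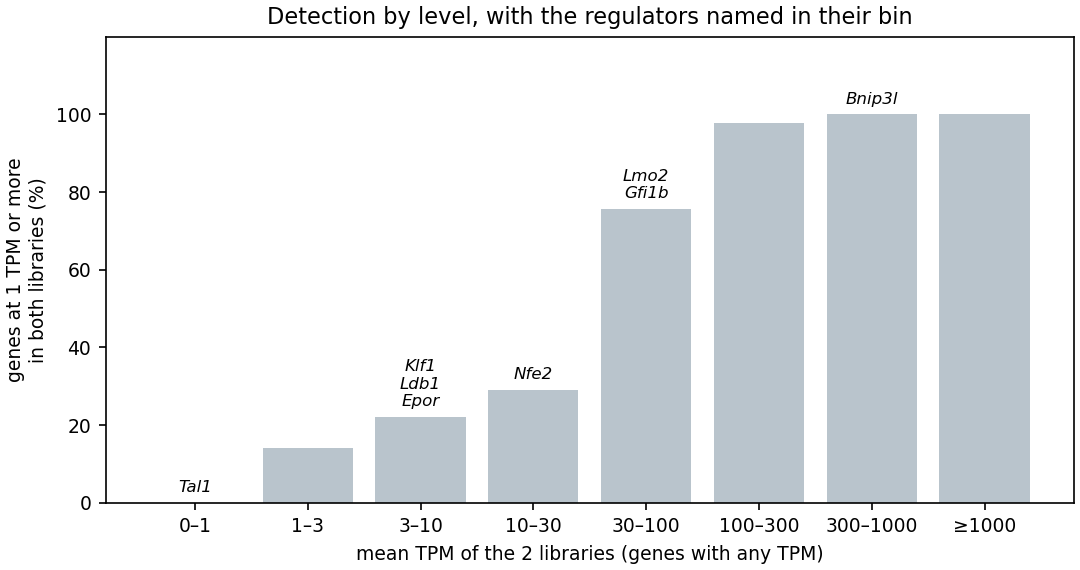
Percent of genes reaching 1 TPM in both libraries, by mean TPM of the 2 libraries, for genes with any TPM; names mark the bin of each gene described here that had a count. The share is 22.1% at 3 to 10 TPM, where Klf1, Ldb1 and Epor lie, and reaches 75.7% at 30 to 100 TPM (Lmo2 and Gfi1b) and 100% in the bin of Bnip3l.

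Other blood transcription factors showed the same picture. Of 14 listed, 4 were at 1 TPM or more in both libraries, 3 in pup 1 only, 4 in pup 3 only and 3 in neither. E2f4, a cell cycle factor needed for red cell output in the mouse fetus, had 139 TPM in pup 1 against 105 TPM in pup 3, and Ikzf1 (Ikaros) had 21.5 TPM in pup 1 against 28.5 TPM in pup 3. Zbtb7a, a repressor of fetal globin, had 6.04 TPM in pup 1 against 41.7 TPM in pup 3, and E2f2 had 44.0 TPM in pup 1 against 0.011 TPM in pup 3. Gata2, the GATA factor of earlier progenitors, had 0 counts in both. Spi1 (PU.1), which opposes GATA1 in myeloid cells, had 0 TPM in pup 1 against 31.6 TPM in pup 3.

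Bnip3l (ENSMUSG00000022051, chr14:66985239-67008877, minus strand) had 562 TPM in pup 1 against 685 TPM in pup 3, a mean of 623 ± 86.5 TPM, from 28520 and 14413 expected counts. The authors' credibility bounds were 543 to 570 TPM in pup 1 and 656 to 690 TPM in pup 3. Its rank by TPM among all genes was 197 in pup 1 and 177 in pup 3. Its log2(TPM + 1) ratio of pup 1 over pup 3 was -0.28, smaller in size than the median of 0.54 for genes at 300 to 1000 TPM.

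The direction of that small gap depended on the transcripts. The mRNA Bnip3l-201 (3238 nt) held 27.2% of the gene's TPM in pup 1 and 10.3% in pup 3, but 70.3% of its expected counts in pup 1 and 44.2% in pup 3. Bnip3l-205 (789 nt) held 35.3% of TPM in pup 1 and 40.5% in pup 3. Bnip3l-204 (354 nt) held 14.4% in pup 1 and 45.0% in pup 3, and Bnip3l-206 (446 nt) held 23.0% in pup 1 and 0.16% in pup 3. Bnip3l-207 (492 nt) held 0% in pup 1 and 4.10% in pup 3. Short transcripts thus carried most of the TPM in both livers, by a mix that differed between them.

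The 5 transcripts annotated as non-coding held 72.8% of the TPM in pup 1 and 89.7% in pup 3, yet 29.7% of the counts in pup 1 and 55.8% in pup 3. Of their 2621 bases 77.9% lie in exons of the mRNA, as in the lower-case stretch printed above. These bases include Bnip3l-203 (540 nt), which had no count in either library and has 330 bases outside those exons. The shared part of the counted short transcripts is therefore larger. Reads from shared bases fit either kind of transcript and were divided by estimation. Since TPM divides by length, the length credited to the gene after subtracting 99 nt was 1215 nt in pup 1 and 735 nt in pup 3. With all counts credited to the length of the mRNA, Bnip3l stood at 238 TPM in pup 1 against 179 TPM in pup 3, a mean of 208 ± 42.0 TPM and a log2 ratio of 0.41. Without any length, it stood at 520 CPM in pup 1 and 414 CPM in pup 3, a log2 ratio of 0.33. In the full-length unit Lmo2, the next gene, had 3.94 TPM in pup 1 against 145 TPM in pup 3, a mean of 74.6 ± 99.9 TPM, so in pup 3 Bnip3l lay little above it. In either unit pup 1 and not pup 3 was the higher liver for Bnip3l. The pseudogene Bnip3l-ps, which can share reads with it, had 2.56 TPM in pup 1 against 4.62 TPM in pup 3.

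**Figure D4:**
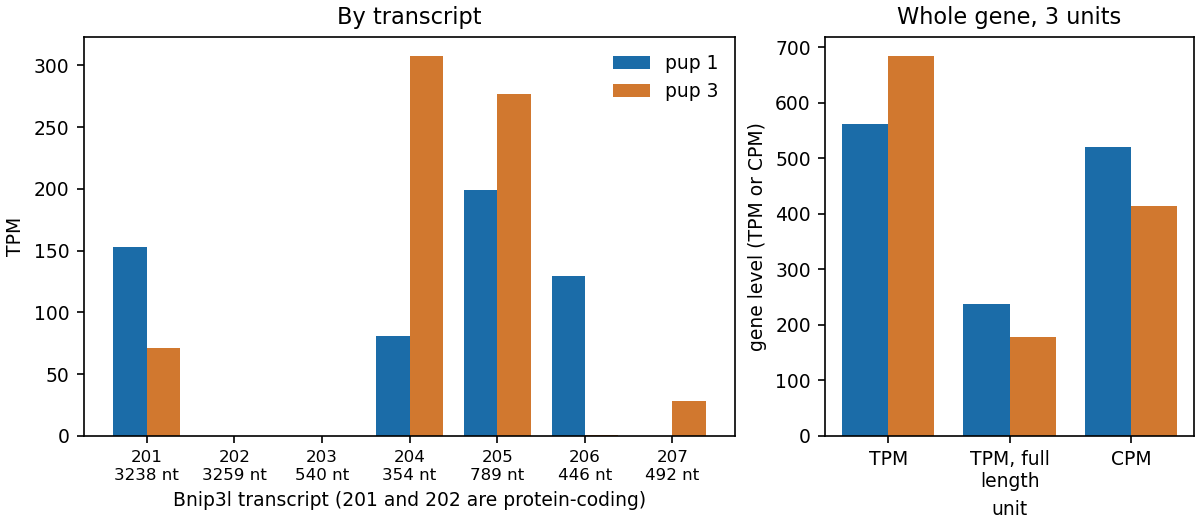
Left, TPM of each annotated Bnip3l transcript in pup 1 and pup 3, with its length. Right, the level of the whole gene as TPM, as TPM with every count credited to the mRNA's full length, and as CPM; pup 1 is lower in TPM (562 against 685) and higher in the other units (238 against 179 TPM, and 520 against 414 CPM).

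Among the 5 protein-coding genes whose log2(TPM + 1) values lay nearest to those of Bnip3l over the 2 libraries were Hspa5 (567 TPM in pup 1 against 689 TPM in pup 3), mt-Nd3, Igf2 and Cnbp, at distances of 0.016 to 0.141. With 2 points per gene, this likeness states a similar level and little else.

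Other genes of mitophagy and organelle clearance were partly present. Of 22 listed, 11 were at 1 TPM or more in both libraries, 4 in pup 1 only, 2 in pup 3 only and 5 in neither. Bnip3, the paralog of Bnip3l, had 248 TPM in pup 1 against 287 TPM in pup 3. Ube2l6, which encodes a conjugating enzyme for ubiquitin and ISG15, had 392 TPM in pup 1 against 541 TPM in pup 3. Their log2 ratios of pup 1 over pup 3 were -0.21 for Bnip3 and -0.46 for Ube2l6.

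Transcripts of the LC3 and GABARAP families, whose proteins BNIP3L binds, varied by member. Map1lc3b (LC3B) had 200.1 TPM in pup 1 against 261 TPM in pup 3, and Gabarap had 104 TPM in pup 1 against 292 TPM in pup 3. Gabarapl2 had 53.7 TPM in pup 1 against 84.9 TPM in pup 3, Map1lc3a 6.64 TPM in pup 1 against 21.9 TPM in pup 3, and Gabarapl1 13.0 TPM in pup 1 against 0 in pup 3. Phb2, an inner membrane mitophagy receptor, had 144 TPM in pup 1 against 262 TPM in pup 3. The autophagy initiation gene Becn1 had 110.0 TPM in pup 1 against 0.212 TPM in pup 3. Pink1, a kinase gene of mitophagy, had 0.021 TPM in pup 1 against 0 in pup 3. Atg7, Alox15 and Trim58, which act in organelle loss from red cells or in autophagy at large, had 0 counts in both.

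Across all 10 genes, the transcript tables listed 50 transcripts, of which 16 had counts in each library and 8 in both. The share over all transcripts is not given here, so these counts are no result about the 10 genes. Among all genes with a mean of 10 or more expected counts, 39.3% had 0 counts in 1 library only. Lmo2 was assigned mainly to an mRNA of 1529 nt, with 100% of its TPM in pup 1 and 96.3% in pup 3. Ldb1 in pup 3 was divided among 3 mRNAs of 1718, 2108 and 2088 nt, with 84.0%, 11.7% and 4.29% of its TPM. Klf1 and Epor have 1 listed transcript each, and Tal1 had counts on 1 of 4.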

How the data were processed

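RNA of 2 P0 livers was measured in 1 library each, in 1 group. Per the deposited notes, values refer to mm10 with GENCODE M4 genes; for aligner and quantifier the tool is not given in the sources here. The authors deposited expected counts (estimated reads per feature, which need not be whole), TPM corrected for effective length (listed length minus 99 nt), posterior mean TPM with credibility bounds, treated as a score, and isoform percent. Near-identical genes share reads by estimation. No molecular identifiers appear, so floors (3 counts) cover counting error only.

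Spike-ins were removed from the deposited TPM, which was rescaled to 1000000. CPM was computed from endogenous expected counts. A gene was called present at 1 TPM. Log2 ratios are log2(TPM + 1), pup 1 over pup 3, for genes with a mean of at least 10 expected counts, and understate gaps of low genes. The full-length unit divides each protein-coding gene's counts by the length of its longest principal mRNA, rescaled over all features. GENCODE M21 (GRCm38, the assembly called mm10 above) supplied names and coordinates, matching 42462 of 43346 genes; of 145 list symbols 1 (Ahsp) is not analysed here. No test was run, as there is no contrast. The 10 genes and the 13 gene lists were chosen with earlier results of these data known. The text names all 10 genes, the 4 of highest mean TPM of each list, genes needed to describe a complex or pathway, genes at 0 among markers, 3 endothelial and 3 LC3 or GABARAP genes chosen after their values were seen, and the 5 genes nearest to Bnip3l; some of these items are not reported here. The full-length unit, CPM for ratios and the gene families of the closing observations were added after seeing the data. The arithmetic was tested on simulated data. Scaling factors on rounded expected counts came from edgeR 4.0.16 and from DESeq2 1.42.0 under R 4.3.3; all else used Python 3.11.15 with pandas 2.3.3, numpy 2.4.6 and matplotlib 3.10.9.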

Additional observations from a re-analysis of the deposited data

How the results depend on the processing

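With 2 libraries the SD of most genes is near their mean, so it is no measure of stability. Nfe2, at 16.0 TPM, stood at 8.35 in CPM and 6.69 TPM with full length, and Bnip3l, at 623 TPM, at 467 in CPM and 208 TPM. Gata1 and Zfpm1, at 0, had posterior means of 0.154 and 0.245 TPM. With every count credited to the full-length mRNA, a unit chosen after seeing the data, the summed TPM was 353 (769 as reported) and the share of Bnip3l 60.3% (81.6% as reported); in CPM the share was 74.6%. Single libraries gave sums of 657 to 881 TPM and shares of 77.7 to 85.6%. The log2 ratio of Bnip3l reversed from -0.28 to 0.33 in CPM and to 0.41 with full length, because the credited length differed between the libraries. Scaling by edgeR TMM, DESeq2 size factors and spike-in totals shifts all log2 ratios by 0.26, 0.26 and -0.23 before the pseudocount; the ratio of Bnip3l was then -0.02, -0.02 and -0.51. At 10 TPM 2 of the 10 genes were present in both libraries in place of 4 (6.18% of all genes), and single libraries gave 5 to 6. Where both libraries had to hold 100 expected counts, which left 3 genes, 1 (Lmo2) passed 2-fold in place of 5; fewer genes were counted. No other alternative for these counts moved them by over 1.5 times. Of 12 gene lists, the number present in both libraries changed by more than 1.5 times for 3 at 10 TPM (LDB1 partners 1, erythropoietin signalling 3, endothelial markers 2). All other changes of a list, at 10 TPM, 0.1 TPM or 10 expected counts, were by 1 or 2 genes. No paired analysis was possible because there is 1 group. For Gata1 and Zfpm1, the floors and credibility bounds given do not cover molecules lost before amplification, so they do not limit the level in the liver.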

Other observations

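The families of Gata1 and Klf1 were looked at after their values were seen. Gata1 to Gata6 had 0 expected counts in both libraries, all 6 of them, as did 32458 of all 43346 genes. Of 17 Klf genes 3 reached 1 TPM in both libraries, 5 in a single library and 9 in neither, and 7 had 0 counts in both. Klf15, a metabolic regulator of liver, had 71.2 TPM in pup 1 against 62.4 TPM in pup 3. Klf13 had 28.5 TPM in pup 1 against 10.6 TPM in pup 3, and Klf9 had 8.20 TPM in pup 1 against 10.2 TPM in pup 3. Klf3, which represses many KLF1 targets, had 0.150 TPM in pup 1 against 25.2 TPM in pup 3.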
